A study of Drosophila melanogaster with 9 samples.

Results

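Cytochrome P450 genes were followed in heads of Drosophila melanogaster around the 24 h day. The members were all genes whose current or platform symbol is Cyp followed by digits, letters and digits, as in Cyp6a21, with 1 probe set per gene (of several, that of highest mean level). This gave 80 genes of the 11982 that the array named. The genes were matched by symbol alone, without measured values, though earlier results of these data were known. Affymetrix arrays of a strain labelled 5073 had been made from total RNA at 6 zeitgeber times (ZT, the hours since the lights came on). There were 3 arrays at ZT3, 1 each at ZT7 and ZT11, 2 at ZT15, and 1 each at ZT19 and ZT23, or 9 in all. All arrays share the strain and the tissue by their description, though transcripts of other tissues differed between them, as given below. The labels give no genotype, sex, age, diet or light schedule, no control strain was used here, and nothing says whether replicates came from separate flies, so p-values measure the spread between these arrays.

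Cytochrome P450s are heme enzymes that insert oxygen into their substrates with electrons passed on by partner proteins. In insects some make or break down hormones such as ecdysone, some act on fatty acids and the hydrocarbons of the cuticle, and many oxidise plant toxins and insecticides. The families fall into clans: the CYP3 and CYP4 clans hold most of the genes for detoxification and fatty acid oxidation, the CYP2 clan and the mitochondrial clan hold several genes of hormone metabolism. Of the 80 genes, 37 belong to the CYP3 clan, 32 to the CYP4 clan, 7 to the mitochondrial clan and 4 to the CYP2 clan.

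Levels are on the log2 scale of the authors' normalization, so that 1 unit is a 2-fold difference. Array medians over all probe sets lay between 6.05 and 6.65, and 65 to 70 of the 80 P450 genes reached 5 on any 1 array. The median P450 level, over all 80 genes, was 8.95 in ZT3 replicate 1 and 8.76 in ZT15 replicate 2, against 7.74 to 8.05 in the other 7 arrays. Those 2 arrays also stood apart in transcripts of other tissues. Markers of the testis and accessory gland had a median level of 3.70 and 3.88 in ZT3 replicate 1 and ZT15 replicate 2, against 9.50 to 11.52 in the other 7 arrays. Markers of the antenna, a list chosen after these values were seen, ran the other way, at 7.79 and 7.60 against 3.04 to 3.57. Of 20 measured, 19 were higher in both arrays than in all 7 others, where 38.6% of all probe sets tested were. Of the 20, 16 reached 5 on at least 2 arrays. Some of these, such as Gr63a and Or42b, did so in these 2 arrays alone, so those had to differ. Akh and jhamt, genes of the hormone glands behind the brain and also chosen after the values were seen, had a median of 10.83 and 10.86, against 4.40 to 5.04. Gut markers were low in all 3 ZT3 arrays (5.22, 5.22 and 5.20) and in ZT15 replicate 2 (4.13), against 8.26 to 10.03 in the other 5. The lists that define heads, eye and neuron, were present throughout, and the eye list had medians of 12.72 to 13.47. The neuron list had 9.45 and 9.15 in ZT3 replicate 1 and ZT15 replicate 2, against 9.29 to 10.37 in the other 7 arrays. Of its 4 measured genes, 2 were lower in both arrays than in all 7 others, where 17.3% of all probe sets tested were. The fat body list had medians of 14.47 to 14.92. In such bulk RNA, fewer cells of a type and less RNA per cell cannot be told apart.

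**Figure D1:**
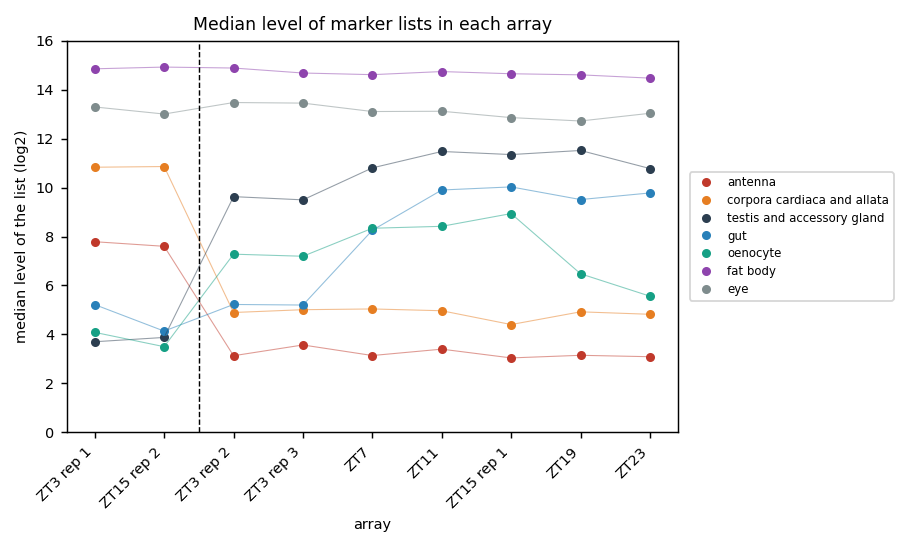
Median level (log2) of 7 marker lists in each array, with ZT3 replicate 1 and ZT15 replicate 2 left of the dashed line and the other 7 arrays right of it; points are list medians and lines join the points of a list. Antennal and gland markers are high only left of the line, testis and accessory gland markers are high only right of it, and eye and fat body lists stay above 12 in all 9 arrays.

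A total of 62 P450 genes reached a level of 5 on all 9 arrays. The filter for testing, 5 or more on at least 2 arrays, was passed by 71 of 80 (88.8%), where 80.6% of all named genes passed it. The 9 that did not pass were Cyp303a1, Cyp310a1, Cyp313a2, Cyp313a3, Cyp313a5, Cyp313b1, Cyp316a1, Cyp6a16 and Cyp6a19. Cyp303a1, which is needed for sensory bristles, stayed between 2.04 and 2.46. By clan, 34 of 37 CYP3, 27 of 32 CYP4, 7 of 7 mitochondrial and 3 of 4 CYP2 genes passed. All 5 measured Halloween genes, P450s of ecdysone synthesis that carry names of their own (spo, spok, dib, sad and shd), lay below 5 on every array, with a highest level of 4.51 for shd in ZT3 replicate 2. The 8 genes with the highest mean over the arrays were Cyp313a1, Cyp6d5, Cyp4g1, Cyp9f2, Cyp4e2, Cyp28d1, Cyp6a2 and Cyp4d21. Probe sets differ in how strongly they bind, so this is no order of abundance between genes.

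The range over the 9 arrays was under 0.5 for 10 of the 71 P450 genes (14.1%), a smaller share than over all probe sets tested (2173 of 12105). Cyp9f2 lay between 12.41 and 12.72 and Cyp4p2 between 10.38 and 10.71. Cyp12a4, a mitochondrial P450 known for resistance to the insecticide lufenuron, lay between 11.07 and 11.45. The median SD over the 9 arrays was 0.341 for P450 genes and 0.288 for all probe sets. Over the 7 arrays without ZT3 replicate 1 and ZT15 replicate 2 it was 0.216 and 0.208.

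**Figure D2:**
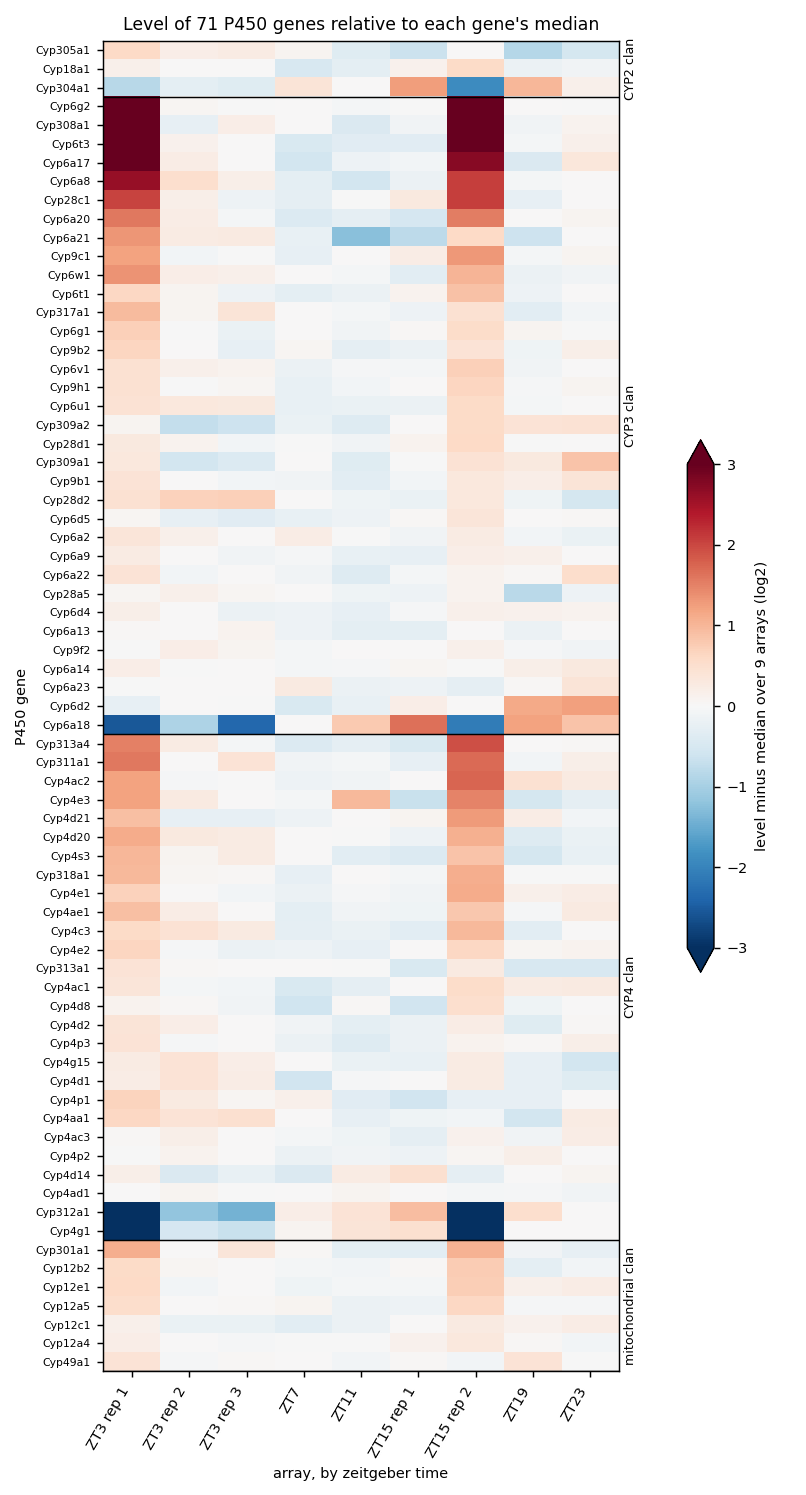
Level of each of the 71 tested P450 genes (rows, by clan) in each array (columns, by zeitgeber time) minus the median of that gene over the 9 arrays, on the log2 scale, with colours ending at 3 in either direction. The columns of ZT3 replicate 1 and ZT15 replicate 2 differ from the other 7, with Cyp6g2, Cyp308a1, Cyp6t3 and Cyp6a17 at the high end and Cyp4g1 and Cyp312a1 at the low end.

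The largest differences within the family set ZT3 replicate 1 and ZT15 replicate 2 apart from the other arrays, whatever the time of day. These 2 arrays were set apart by other genes, in earlier results of these data, so the contrast is described here with no test. Of the 71 P450 genes, 44 had higher levels in both arrays than in all 7 others, where 38.6% of all probe sets tested did. Of the 44, 3 passed the filter through these arrays alone. Another 3 had lower levels in both, where 17.3% of all probe sets did. A mean over 2-fold higher was seen in 19 P450 genes, against 4.44% of all probe sets, and a mean over 2-fold lower in 4, against 13.7%. With arrays centred on their medians, which raised the median difference of all probe sets from 0.197 to 0.675, the background of over 2-fold higher values was 22.9% and 34 P450 genes were over 2-fold higher. With quantile normalization the counts were 21 genes and 8.15%. Of the 19 genes, 10 belong to the CYP3 clan, 8 to the CYP4 clan and 1 to the mitochondrial clan. The 3 genes past the filter through these arrays alone had to differ. They are counted in the 19, the 34 and the 21, and in the clan counts.

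Cyp6g2 had levels of 7.98 and 8.03 in ZT3 replicate 1 and ZT15 replicate 2, against 3.55 to 3.67 in the other 7 arrays. This gene is known from the corpora allata, the gland that makes juvenile hormone, and its overexpression gives resistance to insecticides. Cyp308a1 had 7.62 and 7.11, against 2.73 to 3.38. For both genes the 2 sets of arrays lie far apart and the 7 others are close to one another, below the level of 5 used as a filter. Both, with Cyp313a4 (5.76 and 6.18, against 3.78 to 4.48), passed the filter through these 2 arrays alone, so they had to differ. Cyp6t3, known for a part in ecdysone production in larvae, had 9.08 and 8.70, against 4.90 to 5.51, a mean difference of 3.66. Cyp6a17, known for a part in temperature preference, had 10.52 and 10.09, against 6.78 to 7.69, or 8.28-fold higher. Cyp6a8, a gene induced by caffeine and barbiturates, had 10.64 and 10.11, against 7.50 to 8.54, or 5.24-fold higher. The other 7 arrays did not overlap with the 2 in any of these genes.

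Of the other genes named, some chosen after their values were seen, Cyp6a20, known for its effect on male aggression, had 8.99 and 8.94 in the same 2 arrays, against 6.92 to 7.64 in the others, or 3.21-fold higher. Cyp4d21, also called sxe1 and known for male-biased expression in the fat body of the head, had 12.79 and 13.19, against 11.66 to 12.11, or 2.22-fold higher. The fat body list itself had medians of 14.85 and 14.92 in the 2 arrays and 14.47 to 14.88 in the others. Of its 7 measured genes, 1 was higher in both arrays than in all 7 others, where 38.6% of all probe sets tested were. That gene was neither Lsp2 nor fit. Lsp2 had 13.30 and 14.49, against 10.46 to 13.74, and fit 13.11 and 14.13, against 12.82 to 13.43, so both overlapped. The part of the fat body markers in the Cyp4d21 levels was not tested. Cyp28c1 had 8.09 and 8.13, against 5.80 to 6.35. Cyp301a1, a mitochondrial P450 needed for the cuticle, had 6.07 and 6.02, against 4.65 to 5.33. These differences, as those of Cyp6g2 and Cyp6t3, move with the antennal and gland markers, whose part in the result was not tested.

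The opposite pattern was seen in 3 genes. Cyp4g1, which makes cuticular hydrocarbons in the oenocytes of the body, had the largest SD of the family, with 9.32 and 7.60 in ZT3 replicate 1 and ZT15 replicate 2, against 13.94 to 15.08 in the other 7 arrays. The mean of the 7 was 69.1-fold that of the 2. Cyp312a1 had 4.50 and 4.22, against 7.54 to 9.88, and Cyp304a1 had 5.39 and 4.33, against 5.85 to 7.47. Cyp6a18 overlapped but ran alike, with 3.59 and 4.06, against 3.79 to 7.80. Within the 7 arrays, Cyp4g1, Cyp312a1 and Cyp6a18 were lowest in ZT3 replicates 2 and 3, at 14.09 and 13.94 for Cyp4g1, 7.77 and 7.54 for Cyp312a1 and 5.21 and 3.79 for Cyp6a18. The 2 ZT3 replicates were also the lowest of the 7 in the gut list and the testis and accessory gland list. Of the 4 oenocyte markers, only FASN3 was lower in both arrays than in all 7 others (4.10 and 3.27, against 7.45 to 9.58), and Desat1 was higher in both (14.43 and 14.31, against 14.08 to 14.29). Fad2 and eloF were neither higher nor lower in both arrays than in all 7 others. The part of these markers in the levels of the 4 genes was not tested.

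**Figure D3:**
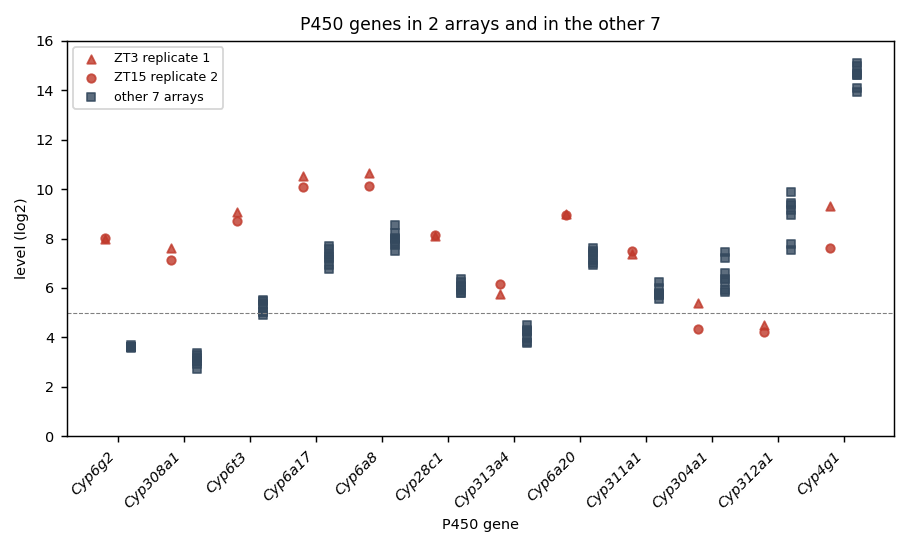
Level (log2) of the 9 P450 genes with the largest mean excess in ZT3 replicate 1 (triangles) and ZT15 replicate 2 (circles) and of the 3 genes lower in both, beside the other 7 arrays (squares). The dashed line marks a level of 5. Cyp6g2 lies at 7.98 and 8.03 in the 2 arrays and near 3.6 in the others, and Cyp4g1 at 9.32 and 7.60 and from 13.94 to 15.08.

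Neighbouring P450 genes differed among themselves in how far the 2 arrays stood apart. In the RefSeq gene order of the Release 6 assembly, 9 P450 genes follow one another in the row Cyp6a22, Cyp6a17, Cyp6a23, Cyp6a19, Cyp6a9, Cyp6a20, Cyp6a21, Cyp6a8 and Cyp317a1, and all 9 were measured. The mean in ZT3 replicate 1 and ZT15 replicate 2 exceeded that of the other 7 arrays by 3.05 for Cyp6a17, while that of Cyp6a23, its neighbour and a closely related copy, differed by -0.19. The Cyp6a23 value was 0.29 with arrays centred on their medians and -0.31 with quantile normalization, so its direction rests on the scaling. Along the row the values were 0.27 for Cyp6a22, 0.28 for Cyp6a9, 1.68 for Cyp6a20, 1.30 for Cyp6a21, 2.39 for Cyp6a8 and 0.72 for Cyp317a1. With median centring those of Cyp6a22 and Cyp6a9 were 0.74 and 0.76. Cyp6a19 did not pass the filter and is not compared. Cyp6g1, Cyp6g2 and Cyp6t3 also lie side by side. Cyp6g1, the gene of DDT resistance, differed by 0.66, with 12.64 and 12.48 against 11.72 to 12.01, where Cyp6t3 differed by 3.66. Cyp6g2 is not set against them by size, since it lay below 5 in the other 7 arrays. In the row Cyp4ac1, Cyp4ac2 and Cyp4ac3 the differences were 0.49, 1.42 and 0.10. That of Cyp4ac3 was 0.58 with median centring and -0.04 with quantile normalization, so its direction rests on the scaling too. Whether probes of close copies bind one another's transcripts was not tested.

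Arrays of ZT15 and of ZT3 are replicated, and they were compared to ask which P450 transcripts differ between these times. In limma no P450 gene passed an adjusted p of 0.05, as no probe set did (0 of 12105, 0.0%). At an unadjusted p under 0.05 there were 2 P450 genes of 71 and 2.35% of all probe sets. The median difference was -0.02 over the P450 genes and -0.04 over all probe sets. By clan the median was 0.04 for CYP3, -0.08 for CYP4, 0.15 for mitochondrial and 0.18 for CYP2 genes. Both ZT15 arrays lay below all 3 ZT3 arrays in 6 P450 genes, where 9.62% of all probe sets did, and above them in none, where 3.42% did.

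Of the 10 P450 genes of smallest p, 6 had lower means at ZT15 and 4 higher. Cyp4aa1 had levels of 6.87 and 6.90 in the ZT15 arrays, against 7.61, 7.41 and 7.47 in the ZT3 arrays, a difference of -0.61 (SE 0.15). Cyp4p1 had 9.67 and 10.01 in the ZT15 arrays, against 10.92, 10.52 and 10.31 in the ZT3 arrays, a difference of -0.74 (SE 0.25). The groups did not overlap in either gene, and limma's adjusted p was 1.00 in both. Cyp305a1 had 8.75 and 9.40 in the ZT15 arrays, against 10.01, 9.60 and 9.66 in the ZT3 arrays, a difference of -0.68 (SE 0.28), and Cyp28d2 4.69 and 5.21 in the ZT15 arrays, against 5.36, 5.59 and 5.61 in the ZT3 arrays, a difference of -0.57 (SE 0.22). Cyp309a2 had 7.47 and 8.03 in the ZT15 arrays, against 7.54, 6.76 and 6.85 in the ZT3 arrays, a difference of 0.70 (SE 0.34). Here the groups overlapped, since ZT3 replicate 1 lay above ZT15 replicate 1. The other 5 genes of smallest p were Cyp6d5 with 0.37 (SE 0.21), Cyp6a23 with -0.21 (SE 0.14), Cyp18a1, which inactivates ecdysone, with 0.30 (SE 0.20), Cyp6a18 with 1.73 (SE 1.27) and Cyp4g15, a P450 of the nervous system, with -0.28 (SE 0.21). The adjusted p was 1.00 for all 10. Single arrays moved several of these values: the Cyp6a18 difference was -0.14 without ZT15 replicate 1, and leaving out 1 array at a time gave 0.08 to 0.52 for Cyp18a1, -0.51 to -0.05 for Cyp4g15, -0.83 to -0.31 for Cyp28d2, 0.42 to 0.99 for Cyp309a2 and 0.22 to 0.53 for Cyp6d5.

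Since the sets of arrays differed so much, the ZT15 to ZT3 difference was also taken within each: ZT15 replicate 2 minus ZT3 replicate 1, and ZT15 replicate 1 minus the mean of ZT3 replicates 2 and 3. No array is shared between these 2 differences. Across the 71 P450 genes the correlation was r = 0.00911, and 44 genes (62.0%) kept their sign. Across all 12105 probe sets it was r = -0.0401, and 52.9% kept their sign. Both describe genes, which do not vary independently. Lower at ZT15 in both, at any size, were 28 P450 genes and 4167 of all probe sets, and higher in both were 16 and 2234. A difference over 0.5 in the same direction in both was seen in 4.54% of all probe sets, over both directions. Among P450 genes it was seen in 5 (7.04%), all lower at ZT15. The values were -0.72 and -1.03 for Cyp6a21, -0.91 and -0.74 for Cyp4p1, -0.70 and -0.57 for Cyp4aa1, -0.60 and -0.88 for Cyp305a1 and -0.53 and -0.52 for Cyp6a8. Cyp309a2 was higher at ZT15 in both, by 0.49 and 0.67. In contrast, Cyp4g1 (-1.73 and 1.07), Cyp304a1 (-1.05 and 1.58) and Cyp312a1 (-0.28 and 2.22) turned between the sets. The gut list turned likewise: its median was 4.13 in ZT15 replicate 2 and 5.22 in ZT3 replicate 1, and 10.03 in ZT15 replicate 1 against 5.22 and 5.20 in ZT3 replicates 2 and 3.

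With the 2-array set as a block in the fit, no P450 gene passed for ZT15 against ZT3, and the background was 0.0% again; at an unadjusted p under 0.05 there were 11, as for 1451 of all probe sets (12%). The 5 genes of smallest p were Cyp6a21, which differed by -0.90 (SE 0.13), Cyp4p1 by -0.81 (SE 0.13), Cyp305a1 by -0.76 (SE 0.12), Cyp4aa1 by -0.63 (SE 0.11) and Cyp309a2 by 0.59 (SE 0.11). Limma's adjusted p was 0.199 for Cyp6a21, 0.217 for Cyp4p1, 0.224 for Cyp305a1, 0.232 for Cyp4aa1 and 0.271 for Cyp309a2. The block does not take up the difference in gut list level between ZT3 replicates 2 and 3 and ZT15 replicate 1. With the gut list level as a covariate in place of the block, Cyp6a21 differed by -0.26 and Cyp305a1 by -0.47. In that fit Cyp4p1 differed by -0.64, Cyp4aa1 by -0.60 and Cyp309a2 by 0.88. Without the block Cyp6a21 differed by -0.70 (SE 0.58), with levels of 8.78 and 10.16 in the ZT15 arrays, against 10.89, 9.80 and 9.83 in the ZT3 arrays, so that the groups overlapped. Leaving out 1 array at a time moved it from -1.39 to -0.01, and that of Cyp305a1 from -1.003 to -0.350. With ZT3 replicate 1 and ZT15 replicate 2 dropped, 12 P450 genes (16.9%) were called, where 18.1% of all probe sets were, from 1 ZT15 array against 2 ZT3 arrays. With 1 array at every other time, the spread in this fit is that of the 2 ZT3 arrays alone (1 residual degree of freedom), and the lone arrays are assumed to vary like them. Of these, Cyp6a21 (-1.03), Cyp305a1 (-0.88), Cyp4p1 (-0.74), Cyp28d2 (-0.91), Cyp4e3 (-0.80) and Cyp4c3 (-0.68) were lower and Cyp309a2 (0.67), Cyp6a18 (3.30), Cyp312a1 (2.22), Cyp304a1 (1.58), Cyp4g1 (1.07) and Cyp4d14 (0.80) were higher. Those 3 arrays also differed in gut list level.

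**Figure D4:**
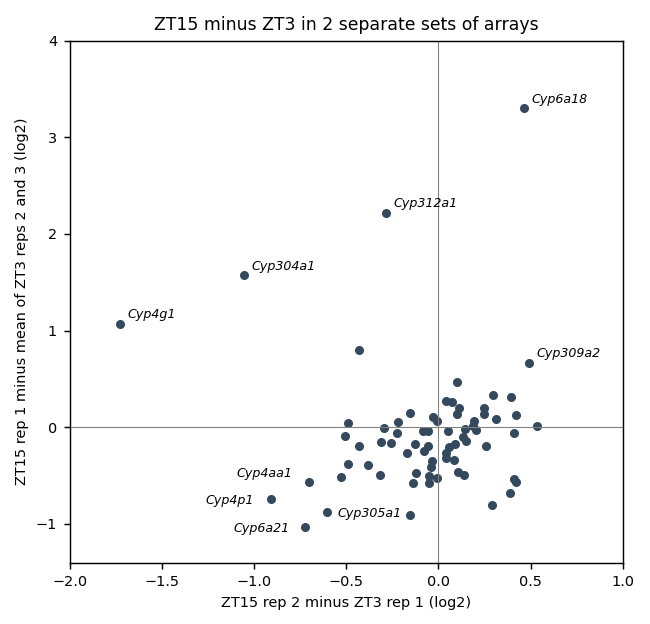
Difference between ZT15 and ZT3 (log2) of the 71 P450 genes in 2 sets of arrays that share none: ZT15 replicate 2 minus ZT3 replicate 1 (x axis) and ZT15 replicate 1 minus the mean of ZT3 replicates 2 and 3 (y axis). Cyp6a21, Cyp4p1, Cyp305a1 and Cyp4aa1 lie below -0.5 on both axes, while Cyp4g1, Cyp304a1 and Cyp312a1 are negative on one and above 1 on the other.

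A daily course was sought over all 9 arrays with limma's F test for a 24 h cosine. No P450 gene passed an adjusted p of 0.05, where 4 of 12105 probe sets (0.033%) did; the clock genes Clk, per and cry were among those 4. At an unadjusted p under 0.05 there were 4 P450 genes of 71 and 4.33% of all probe sets. The median amplitude, the size of the fitted cosine, was 0.18 for P450 genes and 0.16 for all probe sets. With the 2-array set as a block no P450 gene passed either, against 0.248% of all probe sets, and 20 of 71 (28.2%) had an unadjusted p under 0.05, where 16.9% of all probe sets did. With arrays weighted by their fit, 5 P450 genes were called, where 9.72% of all probe sets were.

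Cyp6d2, known for tolerance of the drug camptothecin, had the smallest p of the family. Its levels were 8.15, 8.40 and 8.39 at ZT3, 7.93 at ZT7, 8.16 at ZT11, 8.59 and 8.39 at ZT15, 9.54 at ZT19 and 9.62 at ZT23. The single ZT19 and ZT23 arrays lay above all 7 others, and ZT7 was the lowest. The fitted amplitude was 0.89 (SE 0.16) with a peak at ZT20.5 (limma's adjusted p = 0.615), and 0.89 (SE 0.11) at ZT20.4 with the block (adjusted p = 0.0604). The fit reached 3.44-fold from trough to peak, and the high values rest on 1 array per time. Leaving out 1 array at a time gave amplitudes of 0.74 to 1.03.

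Cyp305a1, Cyp4p1 and Cyp4aa1 each had their highest level in ZT3 replicate 1, which belongs to the 2-array set. Among the other 7 arrays a ZT3 array was also the highest for each, at 9.66, 10.52 and 7.47. Cyp305a1 had 10.01, 9.60 and 9.66 at ZT3, 9.48 at ZT7, 9.05 at ZT11, 8.75 and 9.40 at ZT15, 8.54 at ZT19 and 8.88 at ZT23. Its fitted peak was ZT5.7 with an amplitude of 0.50 (SE 0.16), and every ZT3 array lay above every array from ZT11 to ZT23. Cyp4p1 had 10.92, 10.52 and 10.31 at ZT3, 10.39 at ZT7, 9.91 at ZT11, 9.67 and 10.01 at ZT15, 10.002 at ZT19 and 10.24 at ZT23, with a peak at ZT3.2 and an amplitude of 0.37 (SE 0.09). Cyp4aa1 had 7.61, 7.41 and 7.47 at ZT3, 6.99 at ZT7, 6.75 at ZT11, 6.87 and 6.90 at ZT15, 6.45 at ZT19 and 7.24 at ZT23, with a peak at ZT3.2 and an amplitude of 0.37 (SE 0.10). Its 3 ZT3 arrays were above all 6 others. Limma's adjusted p was 0.948 for Cyp4p1 and 1.00 for Cyp305a1 and Cyp4aa1, and with the block 0.0812 for Cyp4p1, 0.0812 for Cyp305a1 and 0.207 for Cyp4aa1.

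Cyp6a21 and Cyp4ac1 had their 2 highest levels in the 2 arrays of the 2-array set. Cyp6a21 had 10.89, 9.80 and 9.83 at ZT3, 9.33 at ZT7, 8.32 at ZT11, 8.78 and 10.16 at ZT15, 8.95 at ZT19 and 9.56 at ZT23. ZT3 replicate 1 and ZT15 replicate 2 were the highest of all arrays, and ZT11 was the lowest. The amplitude was 0.55 (SE 0.30) at ZT1.2 without the block (adjusted p = 1.00) and 0.59 (SE 0.10) at ZT1.4 with it (adjusted p = 0.114). Cyp4ac1 had 10.91, 10.50 and 10.48 at ZT3, 10.10 at ZT7, 10.29 at ZT11, 10.55 and 11.10 at ZT15, 10.81 at ZT19 and 10.82 at ZT23. Apart from the 2 arrays, ZT19 and ZT23 were highest and ZT7 lowest. Its amplitude was 0.37 (SE 0.14) at ZT20.1 (adjusted p = 1.00), and 0.36 (SE 0.06) at ZT20.3 with the block (adjusted p = 0.107). These 5 genes of smallest p with the block, Cyp6d2, Cyp305a1, Cyp4p1, Cyp4ac1 and Cyp6a21, are also those picked out beforehand from earlier results of these data, so their pattern has no independent support here.

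**Figure D5:**
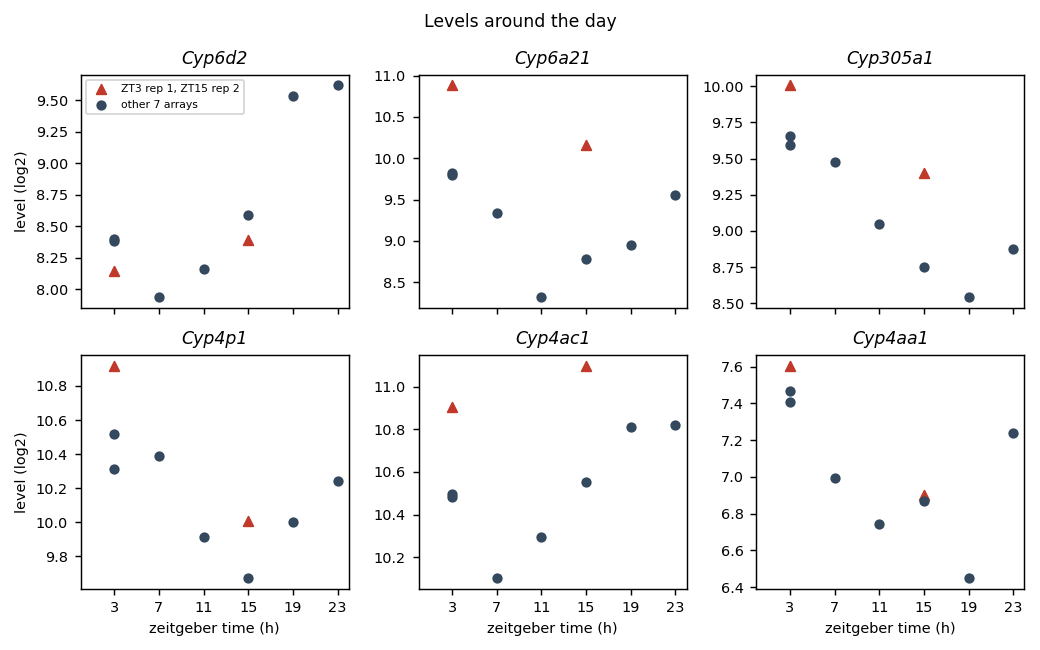
Level (log2) of 6 P450 genes in each of the 9 arrays against zeitgeber time (h), with ZT3 replicate 1 and ZT15 replicate 2 as triangles and the other 7 arrays as circles; each panel has its own level axis. Cyp6d2 is highest at ZT19 and ZT23 (9.54 and 9.62), Cyp4aa1 is highest in the 3 ZT3 arrays, and the triangles of Cyp6a21 and Cyp4ac1 lie above the circles.

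The other P450 genes of smallest p for a rhythm had fitted peaks between ZT18.7 and ZT22.8. Cyp309a2 had an amplitude of 0.50 (SE 0.18), and its levels were 7.54, 6.76 and 6.85 at ZT3, 7.28 at ZT7, 7.09 at ZT11, 7.47 and 8.03 at ZT15, 7.87 at ZT19 and 7.91 at ZT23. The lowest of these were ZT3 replicates 2 and 3. The amplitude was 0.32 (SE 0.12) for Cyp6a22, 0.26 (SE 0.10) for Cyp12c1, 0.29 (SE 0.12) for Cyp9b1 and 0.24 (SE 0.11) for Cyp4p3. The adjusted p was 1.00 for each. Among the 7 arrays outside the 2-array set, ZT3 replicate 2 gave the highest level of 20 of the 71 P450 genes (28.2%), against 34.7% of all probe sets. The ZT23 array did so for 19 (26.8%), against 9.62% of all probe sets, and ZT15 replicate 1 for 11 (15.5%), against 7.15%. The ZT7 array gave the lowest level of 22 (31.0%), against 11.6% of all probe sets. Each of these is 1 array, so an effect of the time and of the array cannot be told apart.

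With the block, 20 P450 genes had an unadjusted p under 0.05, and their fitted peaks are set here beside those of the 2045 probe sets with such a p. From ZT0 to ZT4 there were 4 P450 genes of 20 and 18.9% of the probe sets, and from ZT4 to ZT8 there were 5 and 28.4%. From ZT8 to ZT12 there were 0 and 8.70%, and from ZT12 to ZT16 there were 0 and 18.9%. From ZT16 to ZT20 there were 5 and 11.2%, and from ZT20 to ZT24 there were 6 and 13.9%. The share of P450 genes before ZT8 is thus near that of all such probe sets. Those with peaks after ZT16 were Cyp4ac2, Cyp12c1, Cyp309a2, Cyp6d5, Cyp4d21, Cyp6t3, Cyp6a22, Cyp4ac1, Cyp4p3, Cyp6d2 and Cyp9b1, and those before ZT8 were Cyp6a21, Cyp4aa1, Cyp4p1, Cyp6a8, Cyp317a1, Cyp305a1, Cyp6w1, Cyp313a1 and Cyp4s3. None of these 20 passed after adjustment.

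The remaining genes named for a known role, and Cyp4s3 and Cyp309a1, passed in neither comparison, as no P450 gene did. Cyp6a2, which oxidises several insecticides, lay between 11.91 and 12.47 and differed by -0.10 (SE 0.20) between ZT15 and ZT3. Cyp6g1 differed by 0.13 (SE 0.36). Cyp28d1, linked to nicotine resistance, lay between 12.12 and 12.83 and differed by 0.25 (SE 0.23). Cyp6w1, linked to DDT resistance, had 12.03 and 11.72 in ZT3 replicate 1 and ZT15 replicate 2, against 10.36 to 10.88 in the other arrays. Cyp4s3 had 7.88 and 7.75, against 6.37 to 7.15, and Cyp309a1 7.28 and 7.38, against 6.42 to 7.82, where the sets overlapped.

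Partner proteins and regulators of P450s were measured beside the family. Of 6 listed electron donors, 4 were measured and tested, and none passed in either comparison: Cyt-b5 differed by -0.11 (SE 0.15) between ZT15 and ZT3, and Fdx1, a ferredoxin that serves mitochondrial P450s, by 0.11 (SE 0.26). Fdx1 had 8.85 and 9.03 in ZT3 replicate 1 and ZT15 replicate 2, against 8.30 to 8.63 in the other 7 arrays. Of 11 regulators, all tested, none passed with or without the block. cnc, the activator of the response to oxidants and toxins, had 12.43 and 12.36 in the 2 arrays, against 11.34 to 11.88, and differed by -0.04 (SE 0.34) between ZT15 and ZT3. Its inhibitor Keap1 differed by -0.43 (SE 0.29), with a rhythm amplitude of 0.31 with the block (adjusted p = 0.181). Hr96, a nuclear receptor of the response to toxins, differed by -0.12 (SE 0.20). Hr38, a nuclear receptor, had the largest difference of the list, -2.46 (SE 0.24), with limma's adjusted p at 0.60. ss, which encodes a factor that specifies the antenna, had 8.17 and 8.16 in ZT3 replicate 1 and ZT15 replicate 2, against 4.43 to 5.18 in the other 7 arrays, with no overlap.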

How the data were processed

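Heads of strain 5073 were measured on 9 arrays. Per the submitters' processing notes the authors used GCRMA, which corrects background, normalizes arrays together and gives log2 values; no version is given in the sources used here. A deposited score per probe set is not on a log scale. Its natural log was taken as the authors' log2 value, because the added hybridization controls then followed log2 concentration at a slope of 1.05 (range 0.956 to 1.11), against 1.51 with log2 of the deposited values, which reached 22.95. This base is an inference: were it wrong, log2 differences would be larger and directions the same.

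Probe sets were named by the platform annotation with symbols updated from RefSeq: of 18769 probe sets other than controls, 13647 named 1 gene, 402 several and 4720 none. 82 probe sets named the 80 P450 genes; Cyp12d1-d and the cyclophilins Cyp1 and Cyp40 are outside the rule. No sequences were used here, and RefSeq positions served only for the order of neighbouring genes. limma 3.58.1 in R 4.3.3 was fitted to all 12105 probe sets with 5 or more on at least 2 arrays: 6 group means for ZT15 minus ZT3 (residual df of 3), and a cosine and sine of 24 h (residual df of 6). p-values were two-sided and adjusted by Benjamini-Hochberg over all of them, with a threshold of 0.05. The fits were tested on simulated data that held no difference between the 2-array set and the other arrays. How they behave with such a difference was thus not tested. Alternatives were other scalings, filters, weights, covariates, blocks and left-out arrays. The 2-array set is ZT3 replicate 1 and ZT15 replicate 2.

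Members, lists and tests were chosen with earlier results of these data known. Named were the 10 P450 genes of smallest p in each comparison and 5 with the block, Cyp6d2, Cyp6a21, Cyp305a1, Cyp4p1 and Cyp4ac1, the 8 of highest mean and of largest SD, and genes of well-known role; others were chosen after their values were seen. Of the marker lists, 22 of 30 gut, 25 of 26 testis and accessory gland, 3 of 4 Malpighian tubule, 7 of 9 fat body, 4 of 4 oenocyte, 8 of 11 eye, 4 of 6 neuron, 5 of 6 glia and 6 of 6 hemocyte genes were measured.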

Additional observations from a re-analysis of the deposited data

How the results depend on the processing

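The count of 0 P450 genes called held for ZT15 against ZT3 in limma under all settings tried except when ZT3 replicate 1 and ZT15 replicate 2 were dropped together (12 called), and for the rhythm under all except array weights (5 called: Cyp6d2, Cyp305a1, Cyp4aa1, Cyp4ac1 and Cyp28a5; 9.72% of all probe sets were called there, and the weights did not fully converge). It ranged from 0 to 0 on leaving out any 1 array. With log2 of the deposited values the p-values of both comparisons were those of the main fit. Those of ZT15 against ZT3 were also the same with only the ZT3 and ZT15 arrays, so these settings could not change the count. Among 13 genes followed for ZT15 against ZT3, 2 turned in sign on leaving out 1 array, with ranges of -0.14 to 3.60 for Cyp6a18 and -0.073 to 0.47 for Cyp4ac1; neither was called. The cause of these changes was not tested. The replicate numbers of the labels do not pair the arrays: replicates of the same number deviated in opposite directions (r = -0.857 over probe sets). With the number as a replicate block 0 P450 genes were called, and with crossed numbers, chosen after seeing the data, 0 as well. Medians of the Malpighian tubule list were 5.92 and 5.47 in the 2-array set and 6.64 to 7.79 in the other arrays, those of neuron 9.45 and 9.15 and 9.29 to 10.37, of glia 11.28 and 11.35 and 10.82 to 11.30 and of hemocyte 8.65 and 8.52 and 7.60 to 8.05. The number of arrays limits the precision: 4 of the 6 times have 1 array.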

Other observations

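Both P450 genes with a second probe set allow a check within a gene. Cyp12e1 had levels of 8.92 and 9.03 in ZT3 replicate 1 and ZT15 replicate 2 by its second probe set, and 8.97 and 9.12 by the first, so the 2 probe sets ran alike. Cyp18a1 did not: by its first probe set ZT15 replicate 2 was the highest array (10.71), while by the second ZT15 replicate 1 was (9.86, against 9.55 in ZT15 replicate 2). The second probe set differed between ZT15 and ZT3 by 0.41 (SE 0.19) and the first by 0.30 (SE 0.20), and neither passed in limma.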
